A study of Mus musculus with 12 samples.

Results

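The genes of glycogen synthesis and breakdown were followed through the differentiation of mouse hepatoblasts into hepatocytes. The 9 genes were taken by name, out of 53715 genes in the count table. They were Ugp2, Gyg, Gys1, Gys2 and Gbe1 of the synthetic arm, Pygb and Pygl of the degradative arm, and Ppp1r3b and Ppp1r3c, which encode glycogen-targeting subunits of protein phosphatase 1. All 9 had more than 10 counts in at least 1 library and were among the 17779 genes tested.

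Polyadenylated RNA was sequenced from 3 groups of 4 biological replicates, all from mice of the strain C57BL/6JOlaHsd. Hepatoblasts, the bipotent progenitors of the embryonic liver, were taken as the Dlk1+ fraction of pooled E14.5 livers by magnetic separation and lysed directly. Diff. hepatocytes were such E14.5 hepatoblasts after 4 days on fibronectin-coated plates, in a medium with Matrigel, serum, an insulin-containing supplement and dexamethasone, a synthetic glucocorticoid. Mature hepatocytes came from collagenase-perfused livers of male mice aged 8 to 12 weeks and were lysed directly. The sex of the pooled embryos, and the feeding state and time of day at which the adult livers were taken, are not given in the sources used here. Age, culture and the isolation method change together between the groups and cannot be told apart.

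Glycogen is the store of glucose in the liver cell. UDP-glucose pyrophosphorylase, the product of Ugp2, makes the activated sugar, glycogenin (Gyg) primes a new particle, glycogen synthase (Gys1 in most tissues, Gys2 in liver) extends the chains and the branching enzyme (Gbe1) branches them. Glycogen phosphorylase, with Pygl as the liver isozyme and Pygb as the isozyme first described in brain and found in many fetal tissues, releases glucose 1-phosphate from the chain ends. Both enzymes are switched by phosphorylation, which inactivates the synthase and activates the phosphorylase. Targeting subunits such as Ppp1r3b, the GL subunit of liver, and Ppp1r3c, also called protein targeting to glycogen, bring the phosphatase to the particle, where it reverses both switches. The fetal liver is known to build up glycogen late in gestation, after the stage sampled here.

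The libraries held 19581551 to 25216977 counts on genes. Values are given as CPM, the counts of a gene relative to the effective size of its library, which was set by TMM factors of 1.23 to 1.44 in hepatoblasts, 1.03 to 1.08 in Diff. hepatocytes and 0.677 to 0.778 in mature hepatocytes. With this scaling the median log2 fold change of all tested genes was -0.013 for Diff. hepatocytes against hepatoblasts, -0.15 for mature hepatocytes against hepatoblasts and 0.092 for Diff. against mature hepatocytes. Library totals in place of TMM moved these medians to -0.34, -1 and 0.62. The 8 hepatocyte markers summed to 36022 to 60717 CPM in hepatoblasts, 68002 to 76427 in Diff. hepatocytes and 121711 to 168132 in mature hepatocytes. The hepatoblast markers Dlk1 and Afp summed to 30041 to 50685, 16053 to 20507 and 35.2 to 64.5 CPM in the same order. Of the 8 hepatocyte markers, 5 were called higher and none lower in Diff. hepatocytes than in hepatoblasts, beside 14.9% and 14.0% of all tested genes. Alb (log2 fold change 0.09) and Ttr (-0.88) were not called there.

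Replicate 1 of the hepatoblasts stood apart. Its 10 erythroid markers summed to 3076 CPM against 379 to 625 in the other hepatoblast libraries, its 10 macrophage markers to 413 against 96.9 to 116, and its 8 endothelial markers to 146 against 49.9 to 75.6. It was also the lowest library of its group in Gys2, Gbe1, Ugp2, Pygb, Pygl and Ppp1r3b. Without it, the numbers of the 9 genes called in the 3 comparisons stayed at 6, 8 and 5. Mesenchymal markers, 9 genes led by collagens, summed to 692 to 1344 CPM in hepatoblasts, 1232 to 2975 in Diff. hepatocytes and 49.4 to 67.3 in mature hepatocytes. Of the 9, 8 were called higher in Diff. than in mature hepatocytes, beside 20.2% of all tested genes. The 7 bile duct markers summed to 27.4 to 36.9, 114 to 305 and 37.3 to 65.9 CPM, and Diff. hepatocytes replicate 1 was the highest library for both lists. Of these 7 markers, 4 were called higher and none lower in Diff. hepatocytes than in hepatoblasts, beside 14.9% and 14.0% of all tested genes. Sox9 was not called there (log2 fold change 0.01). No marker of the mesenchymal or macrophage list was at 0 counts throughout a group, whereas Epb42 and Cldn4 were at 0 in all mature hepatocyte libraries, which allows up to 3 counts in each. In bulk RNA, fewer cells of a type and less RNA per cell cannot be told apart.

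The synthase and the phosphorylase are each encoded by an isozyme pair whose members went different ways, so the first 20 codons of each are shown, from the GENCODE M21 transcripts on GRCm38. In the synthase pair the capitals mark the serine codons 8 and 11, counted from the start codon, which encode known inhibitory phosphorylation sites:
Gys1: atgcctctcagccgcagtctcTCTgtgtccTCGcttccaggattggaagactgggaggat
Gys2: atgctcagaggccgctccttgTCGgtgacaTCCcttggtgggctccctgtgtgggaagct
In the phosphorylase pair the capitals mark the serine codon 15, the site that phosphorylase kinase modifies:
Pygb: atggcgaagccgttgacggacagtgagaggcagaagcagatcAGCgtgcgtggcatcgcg
Pygl: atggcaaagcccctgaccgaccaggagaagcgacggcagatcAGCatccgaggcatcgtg
The marked serines were present in both members of each pair, with synonymous codons in the synthases and the same codon in the phosphorylases. Over the aligned coding sequence, 70.3% of bases were identical between Gys1 and Gys2 and 75.9% between Pygb and Pygl. None of the stretches of 75 bases, the length of a read, was shared within a pair, so that reads of this length could be assigned to 1 isozyme. Gys1 shared 4.43% of its stretches with Ruvbl2 and Cgref1, and 310 of its exon bases overlapped Ruvbl2 on the opposite strand.

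From hepatoblasts to Diff. hepatocytes, 5 of the 9 glycogen genes rose and 1 fell. Ppp1r3c, Ppp1r3b, Gbe1, Gys1 and Ugp2 were higher, Pygb was lower, and Gys2, Gyg and Pygl did not pass the test. Calls required an adjusted p below 0.01 in edgeR's quasi-likelihood test together with a log2 fold change beyond 1 in either direction. Of all tested genes 28.9% were called in this comparison, 14.9% higher and 14.0% lower. The libraries of both groups did not overlap for 6 of the 9 genes, against 57.5% of all tested genes. Their log2 fold changes had a median of 1.11.

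Mature hepatocytes differed from hepatoblasts in 8 of the 9 genes, with 5 higher and 3 lower. Ppp1r3c, Ppp1r3b, Gbe1, Ugp2 and Pygl were higher, Pygb, Gyg and Gys1 were lower, and Gys2 was not called. Among all tested genes 44.8% were called, 20.1% higher and 24.7% lower, and 66.0% had no overlap, as had 8 of the 9 glycogen genes. The median of the 9 genes was 1.43.

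Between Diff. and mature hepatocytes 5 of the 9 genes were called, against 35.8% of all tested genes. Gys1, Gyg and Pygb were higher in Diff. hepatocytes (20.2% of all tested genes were), and Pygl and Gys2 were lower (15.6% were). Under library totals, with or without the 50 most abundant genes, neither Pygl nor Gys2 was called and the 3 higher genes remained. The groups did not overlap for 7 of the 9 genes, and 61.6% of all tested genes had no overlap. The median of the 9 genes was -0.52. The 3 comparisons share libraries, so their values are given side by side.

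**Figure D1:**
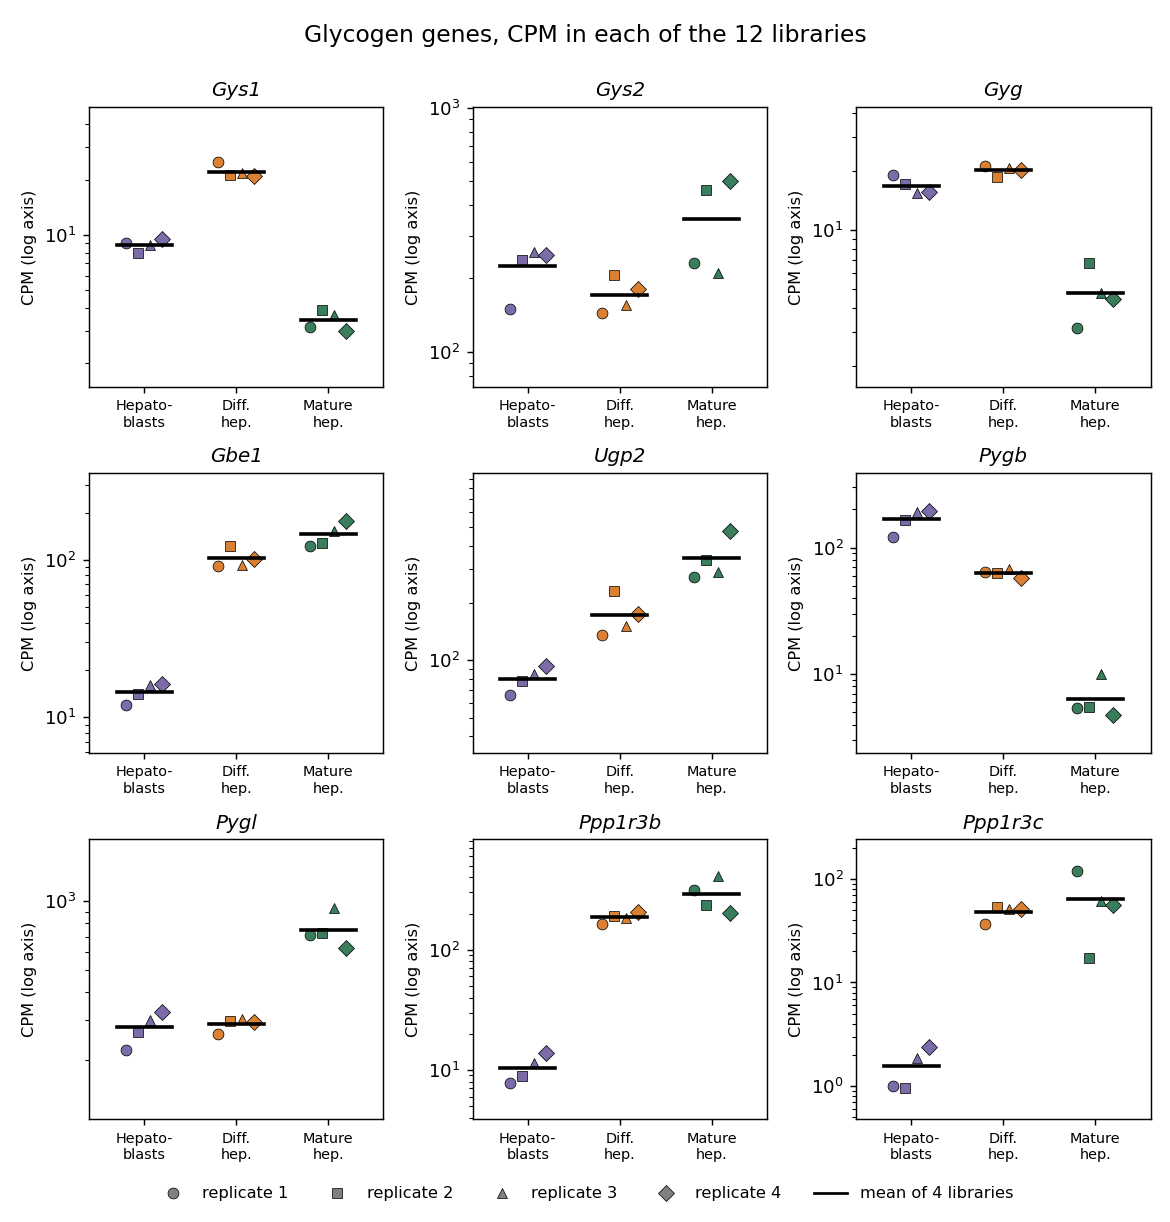
CPM of the 9 glycogen genes on log axes, with 1 panel per gene, 1 symbol per replicate and a line at the mean of 4 libraries. Ppp1r3b, Ppp1r3c and Gbe1 sit far above the hepatoblast libraries in both hepatocyte groups, Gys1 peaks in Diff. hepatocytes (20.9 to 24.8 CPM), and Pygb steps down through the groups to 4.78 to 9.98 CPM in mature hepatocytes.

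**Figure D2:**
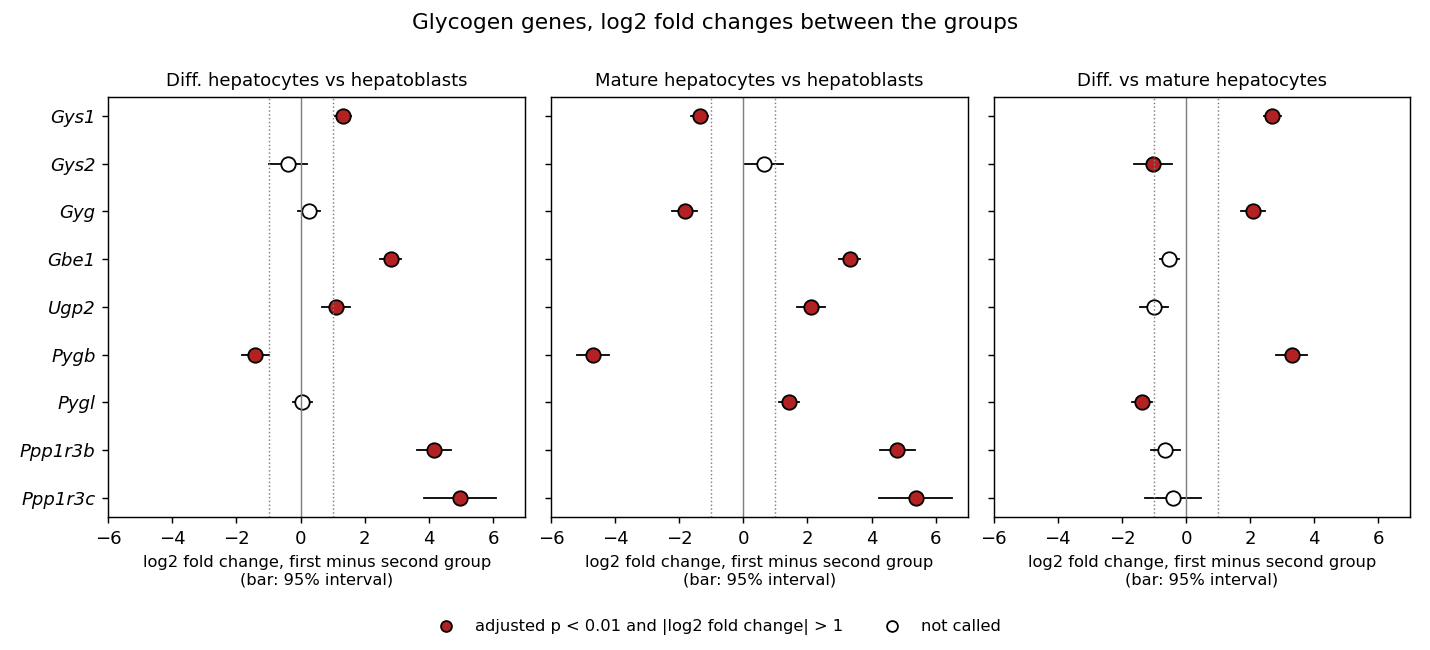
Log2 fold changes of the 9 glycogen genes in the 3 comparisons, first minus second group, with 95% intervals as bars and dotted lines at -1 and 1. Filled points passed both thresholds, and there are 6, 8 and 5 of them from left to right.

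Ugp2, the source of UDP-glucose, rose at each step. Its hepatoblast libraries had 65.5, 77.8, 84.4 and 93.8 CPM, its Diff. hepatocyte libraries 136, 231, 151 and 175, and its mature hepatocyte libraries 274, 337, 290 and 479. The groups did not overlap in either step. Ugp2 was 2.16-fold higher in Diff. hepatocytes than in hepatoblasts (log2 fold change 1.11 ± 0.20 SE, adjusted p = 0.000319 by edgeR) and 4.29-fold higher in mature hepatocytes (2.10 ± 0.20, adjusted p = 6.54e-07). The first call was lost without Diff. hepatocytes replicate 2, the highest of its group (0.92), and under library totals (0.79). Between Diff. and mature hepatocytes the log2 fold change of -0.99 ± 0.20 had an adjusted p of 0.000607 by edgeR and just missed the fold threshold, which it passed (-1.01 to -1.17) without mature hepatocytes replicate 1, 2 or 3 or without Diff. hepatocytes replicate 2.

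Gyg, which encodes the self-glucosylating primer of the glycogen particle, was lower in the adult cells. Hepatoblasts had 19.1, 17.2, 15.5 and 15.7 CPM and Diff. hepatocytes 21.3, 18.7, 20.9 and 20.2, and the ranges overlapped (log2 fold change 0.26 ± 0.16, 95% interval -0.09 to 0.61). Mature hepatocytes had 3.15, 6.74, 4.73 and 4.41 CPM, with each library below every library of both other groups. The log2 fold change of mature hepatocytes against hepatoblasts was -1.83 ± 0.18 (adjusted p = 6.24e-07 by edgeR), and Diff. hepatocytes were 4.25-fold above mature hepatocytes (adjusted p = 2.86e-07).

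Gys1, the synthase isozyme of muscle and most other tissues, was highest in culture. It had 9.03, 7.97, 8.81 and 9.45 CPM in hepatoblasts, 24.8, 21.1, 21.7 and 20.9 in Diff. hepatocytes and 3.15, 3.91, 3.68 and 2.98 in mature hepatocytes. The 3 groups did not overlap, and the adult libraries were the lowest. It was 2.51-fold higher in Diff. hepatocytes than in hepatoblasts (log2 fold change 1.33 ± 0.11, adjusted p = 3.99e-07 by edgeR), 2.56-fold lower in mature hepatocytes than in hepatoblasts (-1.36 ± 0.12, adjusted p = 2.84e-07) and 6.43-fold higher in Diff. than in mature hepatocytes (adjusted p = 1.02e-09). The mesenchymal markers moved with it between Diff. and mature hepatocytes, and their part in the result was not tested. The Diff. hepatocyte library with the highest mesenchymal sum, replicate 1, also had the highest Gys1 level. In both other groups replicate 3 had the highest mesenchymal sum and not the highest Gys1 level. It had 8.81 CPM in hepatoblasts, where replicate 4 had 9.45, and 3.68 in mature hepatocytes, where replicate 2 had 3.91.

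Gys2, the liver isozyme, was already abundant in hepatoblasts, at 150, 239, 257 and 250 CPM. Diff. hepatocytes had 144, 207, 155 and 181 CPM and mature hepatocytes 231, 460, 210 and 504. The adult libraries all lay above the cultured ones, replicates 1 and 3 within the hepatoblast range and replicates 2 and 4 above it. Against hepatoblasts the log2 fold change was -0.38 ± 0.27 in Diff. hepatocytes (95% interval -0.97 to 0.20, adjusted p = 0.239 by edgeR) and 0.65 ± 0.27 in mature hepatocytes (0.06 to 1.24, adjusted p = 0.0455). Under library totals the adult value turned to -0.19. Gys2 was 2.05-fold lower in Diff. than in mature hepatocytes (-1.03 ± 0.27, adjusted p = 0.00467 by edgeR). This call was lost when mature hepatocytes replicate 2 (-0.88) or 4 (-0.81) or Diff. hepatocytes replicate 1 (-0.96), 3 (-0.99) or 4 (-1.06, adjusted p = 0.0111 by edgeR) was left out.

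Gbe1, the branching enzyme, showed the steepest rise of the synthetic arm. Hepatoblasts had 11.9, 14.1, 16 and 16.4 CPM, Diff. hepatocytes 92.2, 123, 93.4 and 101, and mature hepatocytes 123, 129, 154 and 178. The highest cultured and the lowest adult library were both near 123 CPM, and all 8 lay far above the hepatoblasts. The log2 fold change against hepatoblasts was 2.81 ± 0.15 in Diff. hepatocytes (adjusted p = 7.4e-09 by edgeR) and 3.32 ± 0.15 in mature hepatocytes (adjusted p = 5.11e-10). The difference between Diff. and mature hepatocytes was not called (-0.52, 95% interval -0.82 to -0.21) and turned to 0.02 under library totals.

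Pygb, the phosphorylase isozyme of brain and fetal tissues, fell at each step. It had 121, 165, 190 and 193 CPM in hepatoblasts, 64.4, 62.5, 67.3 and 57.3 in Diff. hepatocytes and 5.42, 5.46, 9.98 and 4.78 in mature hepatocytes. No library of 1 group reached the range of another. The log2 fold change was -1.41 ± 0.19 in Diff. hepatocytes against hepatoblasts (adjusted p = 3.26e-05 by edgeR), -4.70 ± 0.23 in mature hepatocytes against hepatoblasts (adjusted p = 8.33e-10) and 3.29 ± 0.22 in Diff. against mature hepatocytes (adjusted p = 2.99e-08). The mesenchymal markers were also higher in Diff. than in mature hepatocytes (8 of 9, beside 20.2% of all tested genes). Against hepatoblasts, 3 of the 9 were higher and none lower in Diff. hepatocytes, beside 14.9% and 14.0% of all tested genes. The part of these markers in the Pygb values was not tested.

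Pygl, the liver phosphorylase, did not follow the same course. Hepatoblasts had 221, 267, 302 and 326 CPM and Diff. hepatocytes 262, 299, 303 and 295, all within the hepatoblast range, with a log2 fold change of 0.05 ± 0.14 (95% interval -0.25 to 0.36). This value turned to -0.03 without hepatoblasts replicate 1 and to -0.26 under library totals. Mature hepatocytes had 709, 729, 934 and 625 CPM, all above the other libraries. They were 2.69-fold above hepatoblasts (1.43 ± 0.14, adjusted p = 8.71e-07 by edgeR) and 2.59-fold above Diff. hepatocytes (adjusted p = 1.92e-06). Under library totals these values were 0.59 and -0.85 for Diff. minus mature hepatocytes, short of the fold threshold, while the medians of all genes were -1 and 0.62.

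The targeting subunits had the largest fold changes against hepatoblasts of the 9 genes. Ppp1r3b had 7.80, 8.90, 11.3 and 13.8 CPM in hepatoblasts, 164, 192, 185 and 207 in Diff. hepatocytes and 315, 236, 413 and 201 in mature hepatocytes. All 8 hepatocyte libraries were far above the hepatoblasts, and the cultured and adult ranges overlapped. It was 17.9-fold higher in Diff. hepatocytes (log2 fold change 4.16 ± 0.24, adjusted p = 1.44e-08 by edgeR) and 27.9-fold higher in mature hepatocytes (4.80 ± 0.25, adjusted p = 1.43e-09) than in hepatoblasts. The difference between Diff. and mature hepatocytes was -0.64 ± 0.21 on the log2 scale (95% interval -1.10 to -0.18, adjusted p = 0.0168 by edgeR) and was not called.

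Ppp1r3c was scarce in hepatoblasts, at 1.00, 0.955, 1.88 and 2.35 CPM. Diff. hepatocytes had 36.7, 53.6, 51.5 and 51.1 CPM, a narrow range, whereas mature hepatocytes spread from 17.3 in replicate 2 over 56.0 and 61.5 to 121 in replicate 1. The cultured range lay inside the adult one. The fold change against hepatoblasts was 31.2 in Diff. hepatocytes (log2 4.97 ± 0.52, adjusted p = 2.72e-06 by edgeR) and 41.4 in mature hepatocytes (5.37 ± 0.52, adjusted p = 6.83e-07). Between Diff. and mature hepatocytes the log2 fold change was -0.41 ± 0.41 (95% interval -1.29 to 0.48), and it turned to 0.10 without mature hepatocytes replicate 1.

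Promoters of 7 of the 9 genes were held by the RefSeq table (GRCm38.p6), with 2 for Ugp2. Gys2 and Ppp1r3b had none and were not searched. The 250 bases before the start were searched on both strands for the E-box CACGTG and the cyclic AMP response element TGACGTCA, which share the core ACGT. They occur in 6.02% and 1.55% of the 32851 promoters of the table. Only Ppp1r3c, the gene with the largest fold change against hepatoblasts, held an E-box, and TGACGTCA was in none of the windows. The 60 bases around it, chr19:36736676-36736735 on the minus strand, are shown with the E-box in capitals, its first base lying 104 bases before the start:
Ppp1r3c: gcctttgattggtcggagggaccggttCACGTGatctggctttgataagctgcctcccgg

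Ratios between 2 genes of the same library do not depend on how libraries are scaled, and were compared as counts per base of exon. The synthase ratio, Gys2 over Gys1, was 29.9, 54.0, 52.5 and 47.6 in hepatoblasts, 10.4, 17.7, 12.9 and 15.6 in Diff. hepatocytes and 131, 210, 102 and 302 in mature hepatocytes. The groups did not overlap, and Diff. hepatocytes had the lowest ratios. Their ratio was 3.23-fold below that of hepatoblasts, and that of mature hepatocytes was 3.81-fold above it (two-sided exact permutation test, p = 0.0286 and adjusted p = 0.049 for each, n = 4 against 4). The smallest p that this test allows is 0.0286, and values were adjusted over the 12 ratio tests. Of the synthase counts per exon base, Gys1 made up 2.24% ± 0.667 in hepatoblasts, 6.83% ± 1.5 in the cultured cells and 0.628% ± 0.284 in the adult cells (SD, n = 4).

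The phosphorylase ratio, Pygl over Pygb, increased at each step. It was 1.27, 1.13, 1.11 and 1.18 in hepatoblasts, 2.83, 3.34, 3.14 and 3.59 in Diff. hepatocytes and 90.7, 92.7, 65.1 and 90.7 in mature hepatocytes. No group overlapped another. The ratio was 2.75-fold higher in Diff. hepatocytes and 71.8-fold higher in mature hepatocytes than in hepatoblasts, and 26.1-fold higher in mature than in Diff. hepatocytes (exact permutation test, p = 0.0286 and adjusted p = 0.049 for each). Of the phosphorylase counts per exon base, Pygb made up 45.5% ± 1.52 in hepatoblasts, 23.5% ± 1.83 in the cultured cells and 1.18% ± 0.216 in the adult cells (SD, n = 4). Pygm, the muscle isozyme, stayed at or under 1.52% in every library. With the longest transcript in place of all exon bases, Pygb made up 32.2%, 14.8% and 0.669% on average, in the same order of groups. The hepatoblast ratio was then 1.97 to 2.25, so how near the levels of Pygl and Pygb were depends on the length used.

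The subunit ratio, Ppp1r3b over Ppp1r3c, was 3.37, 4.03, 2.61 and 2.55 in hepatoblasts and 1.95, 1.57, 1.58 and 1.78 in Diff. hepatocytes, 1.8-fold lower without overlap (exact permutation test, p = 0.0286, adjusted p = 0.049). Mature hepatocytes spread from 1.14 to 5.98, across both other groups (adjusted p = 0.543 against hepatoblasts and 0.530 against Diff. hepatocytes in the exact permutation test). Gys2 over Pygl, the liver synthase against the liver phosphorylase, was 1.77 to 2.33 in hepatoblasts, 1.33 to 1.8 in Diff. hepatocytes and 0.584 to 2.09 in mature hepatocytes. None of its 3 differences passed (adjusted p = 0.0857, 0.114 and 0.480 in the exact permutation test). With the longest transcript in place of all exon bases, its geometric means were 0.941, 0.696 and 0.521 rather than 2.06, 1.52 and 1.14, so which of these genes has the higher level depends on the length used. In mature hepatocytes this ratio was 1.64 and 2.09 in replicates 2 and 4 and 0.845 and 0.584 in replicates 1 and 3.

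**Figure D3:**
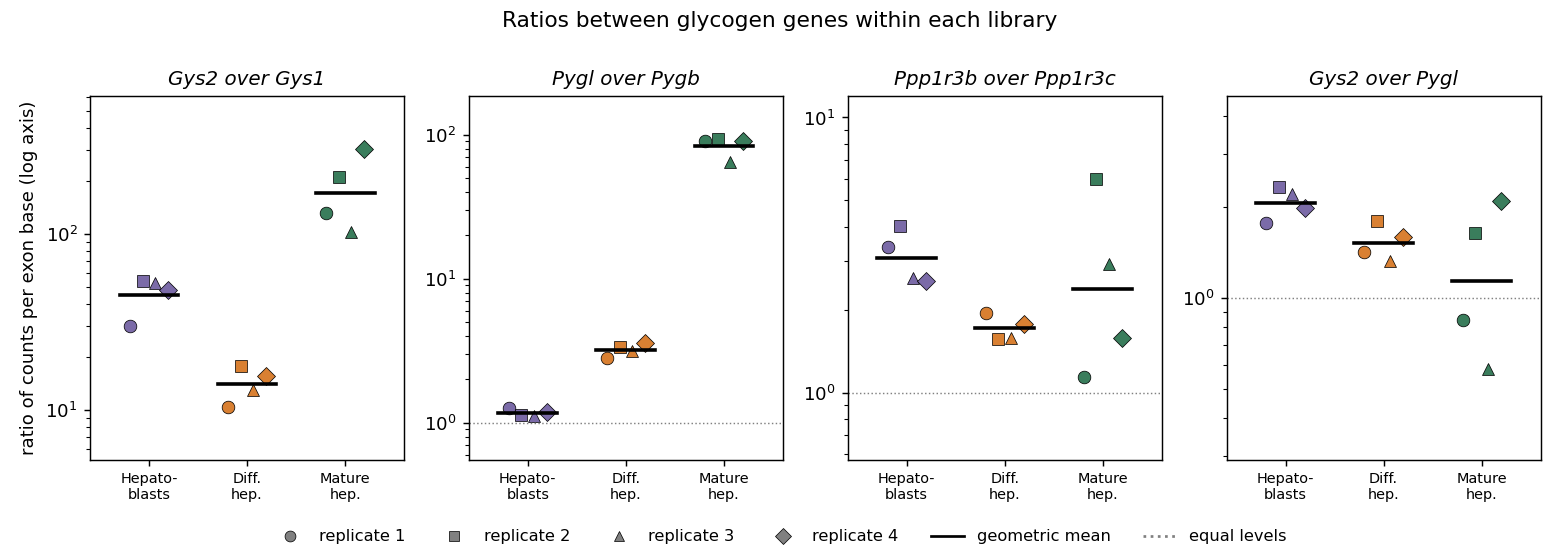
Ratios between glycogen genes in each library, as counts per exon base on log axes, with 1 symbol per replicate, a line at the geometric mean and a dotted line at equal levels. Gys2 over Gys1 is lowest in Diff. hepatocytes (10.4 to 17.7), Pygl over Pygb climbs from 1.11 to 1.27 in hepatoblasts to 65.1 to 92.7 in mature hepatocytes, and the adult libraries spread widely in both right panels.

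Levels between genes were compared as CPM per kilobase of exon. In hepatoblasts Gys2 led with 84.3 ± 18.7, followed by Pygl (40.5 ± 6.66), Pygb (34.8 ± 6.89) and Ugp2 (26.2 ± 3.88), and Ppp1r3c was last with 0.568 ± 0.251 (SD, n = 4). The library ranges of Pygl and Pygb overlapped, as did those of Pygb and Ugp2, although Pygl was above Pygb within each of the 4 libraries. In Diff. hepatocytes Gys2 (64.6 ± 10.7) and Ugp2 (56.5 ± 13.5) overlapped at the top and Ppp1r3b, the second lowest of the 9 genes in hepatoblasts, came next after Pygl with 30.1 ± 2.89 CPM per kilobase. In mature hepatocytes Gys2 (132 ± 57.4), Ugp2 (112 ± 30.4) and Pygl (109 ± 19.0) overlapped at the top, and Gyg (2.03 ± 0.634), Pygb (1.33 ± 0.499) and Gys1 (0.717 ± 0.0914) were the lowest. With the longest transcript in place of all exon bases, Pygl came first in each group, since its exons cover 6895 bases and its longest transcript 3150.

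The genes whose pattern over the 12 libraries was most like that of each member were found among the 8697 genes with a mean of at least 10 CPM, by the root mean square difference of log2 CPM after centring. Gbe1 was nearest to Pcx, the mitochondrial pyruvate carboxylase of gluconeogenesis, at 0.16 on the log2 scale, while Gbe1 itself varied with an SD of 1.47. Ugp2 was nearest to Slc38a4, an amino acid transporter (0.15), and Pygl to Habp4 (0.14) and to Vtn, the plasma protein vitronectin (0.15). Gyg was nearest to Uck2, a uridine-cytidine kinase (0.14), Pygb to Mfge8, a milk fat globule protein (0.20), Gys1 to Tmem268 (0.20), Gys2 to Plekha8 (0.24) and Ppp1r3b to Igsf11 (0.25). Ppp1r3c, which varied most (SD 2.46), was nearest to Gprin3 at 0.53, and Gys2, which varied least (SD 0.55), had its nearest gene at a larger part of its own variation.

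A wider list of 57 genes around the pathway was described in the same fit, and 56 of them were tested. Diff. hepatocytes differed from hepatoblasts in 17, 10 of them higher and 7 lower. Mature hepatocytes differed from hepatoblasts in 26, 14 higher and 12 lower, and Diff. from mature hepatocytes in 19, 9 higher and 10 lower. The share of all tested genes called was 28.9%, 44.8% and 35.8%. Library totals changed the splits to 6 higher and 10 lower, 8 higher and 22 lower, and 14 higher and 8 lower. With these totals 31.5%, 55.8% and 40.9% of all tested genes were called, and their median log2 fold changes were -0.34, -1 and 0.62. The untested gene was Ppp1r3a, the muscle subunit, with at most 1 count in any library.

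Around glucose 6-phosphate, the sugar that feeds the pathway, 5 of 13 genes were higher in Diff. hepatocytes than in hepatoblasts and none was lower, beside 14.9% and 14.0% of all tested genes. G6pc, the catalytic subunit of glucose 6-phosphatase, which releases free glucose, had 0.677 to 1.13 CPM in hepatoblasts, 127 to 192 in Diff. hepatocytes and 840 to 1639 in mature hepatocytes. The 3 groups did not overlap. G6pc had a larger fold change against hepatoblasts than any of the 9 glycogen genes, and it had not reached the adult level. Its log2 fold change in Diff. hepatocytes was 7.50 ± 0.29 against hepatoblasts (adjusted p = 4.42e-10 by edgeR) and -2.99 ± 0.22 against mature hepatocytes (adjusted p = 6.75e-08).

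Slc37a4, the carrier that brings glucose 6-phosphate to that phosphatase, had 29.0 to 48.2 CPM in hepatoblasts and 212 to 262 in Diff. hepatocytes, inside the adult range of 156 to 310. Pgm1, whose product interconverts glucose 6-phosphate and glucose 1-phosphate, and Pgm2 were higher in Diff. hepatocytes than in hepatoblasts (log2 fold changes 1.13 ± 0.14 and 1.30 ± 0.22, adjusted p = 1.48e-05 and 0.000211 by edgeR). Slc2a2, the glucose transporter of liver, was higher in mature hepatocytes than in hepatoblasts (1.64 ± 0.20) and was not called in Diff. hepatocytes (0.11 ± 0.19). The hexokinases Hk1 and Hk2 and the transporter Slc2a1 of other tissues were lower in mature hepatocytes than in hepatoblasts, with log2 fold changes of -3.83 ± 0.68, -4.95 ± 0.22 and -2.08 ± 0.19. Hk1 had 117 CPM in hepatoblasts replicate 1, the library with the high erythroid and macrophage markers, and 11.8 to 22.1 in the others.

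Of the other breakdown genes, Stbd1, which tethers glycogen to membranes, had 14.8 to 24.5 CPM in hepatoblasts, 131 to 146 in Diff. hepatocytes and 85.2 to 188 in mature hepatocytes. It rose 7.13-fold in Diff. hepatocytes and 6.77-fold in mature hepatocytes. Its difference between Diff. and mature hepatocytes was 0.08 ± 0.20 on the log2 scale (95% interval -0.36 to 0.51). Gaa, the lysosomal glucosidase, was called in none of the comparisons.

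Of the 4 other targeting subunits tested, 2 were higher and 1 lower in Diff. hepatocytes than in hepatoblasts, beside 14.9% and 14.0% of all tested genes. Ppp1r3g had 1.29, 1.52, 2.27 and 1.92 CPM in hepatoblasts, 0.821, 0.947, 0.311 and 0.641 in Diff. hepatocytes and 170, 169, 89.1 and 172 in mature hepatocytes. Of the 3 groups it was high in the adult cells, 85.6-fold above hepatoblasts (log2 fold change 6.42 ± 0.28, adjusted p = 3.31e-10 by edgeR), and fell in culture (-1.35 ± 0.35, adjusted p = 0.00454). Between Diff. and mature hepatocytes its log2 fold change was -7.77 ± 0.32 (adjusted p = 3.38e-10 by edgeR), beside -0.64 ± 0.21 for Ppp1r3b and -0.41 ± 0.41 for Ppp1r3c. Ppp1r3e rose in both, from a mean of 2.74 CPM in hepatoblasts to 7.98 in the cultured and 8.86 in the adult cells, and Ppp1r3d and Ppp1r3f stayed at or under 1.2 CPM in every library. Of the catalytic subunits only Ppp1ca was called, lower in Diff. hepatocytes than in hepatoblasts (-1.12 ± 0.09, adjusted p = 2.9e-07 by edgeR).

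**Figure D4:**
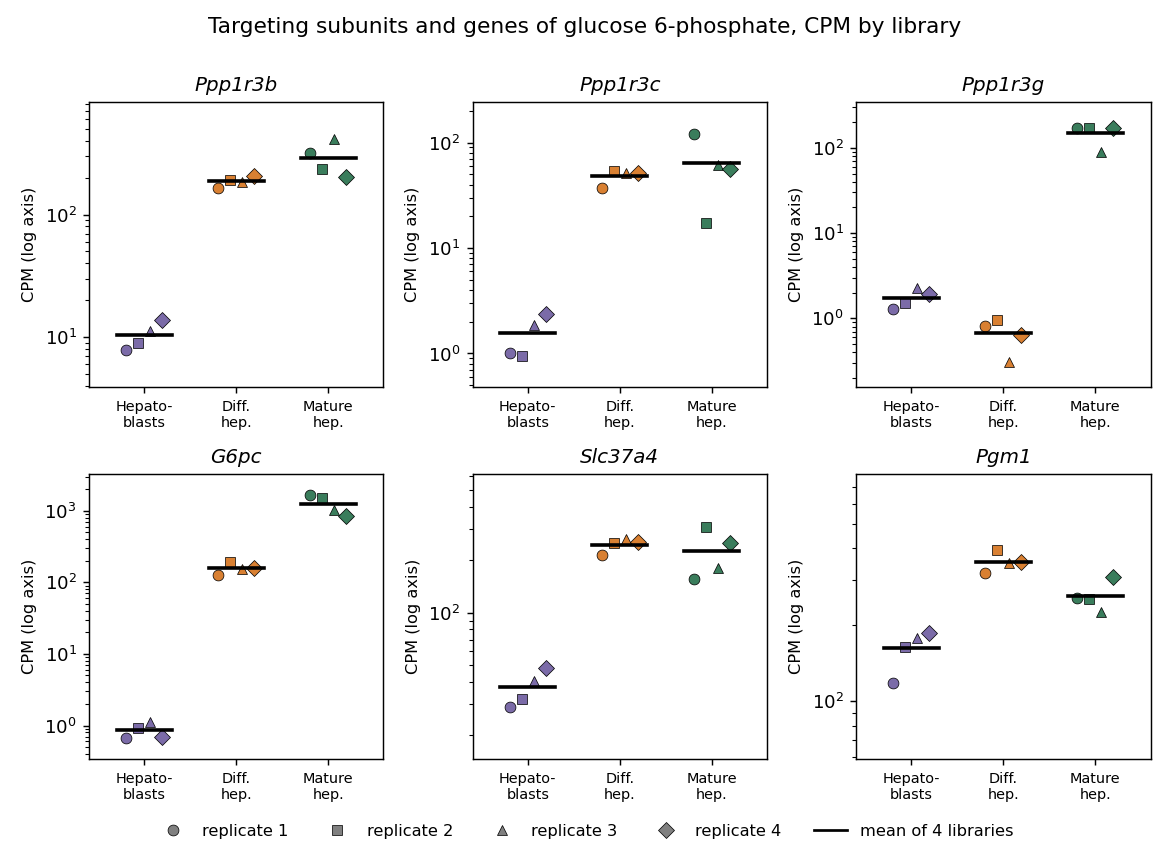
CPM of 3 targeting subunits and 3 genes of glucose 6-phosphate metabolism in each library on log axes, with 1 symbol per replicate and a line at the mean. The Diff. hepatocyte libraries of Ppp1r3c and Slc37a4 lie inside the adult range, 1 of the 4 of Ppp1r3b reaches it (207 CPM against 201 to 413), Pgm1 lies above it, G6pc stays below it, and Ppp1r3g is at 0.311 to 0.947 CPM in culture against 89.1 to 172 in the adult libraries.

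Of 12 genes of kinases that phosphorylate glycogen synthase, 2 were called in Diff. hepatocytes (1 higher and 1 lower) and 4 in mature hepatocytes (1 higher and 3 lower) against hepatoblasts, where 28.9% and 44.8% of all tested genes were called. Prkaa2, a catalytic subunit of AMP-activated kinase, rose in Diff. hepatocytes (log2 fold change 2.39 ± 0.14, adjusted p = 1.8e-08 by edgeR) and further in mature hepatocytes (4.57 ± 0.15, adjusted p = 2.62e-11), and Prkaca, a catalytic subunit of protein kinase A, fell in Diff. hepatocytes (-1.42 ± 0.11, adjusted p = 1.72e-07). The 3 that were lower in mature hepatocytes all encode other subunits of AMP-activated kinase, Prkaa1 (-1.27 ± 0.08), Prkab1 (-1.15 ± 0.11) and Prkab2 (-1.99 ± 0.20). Of 8 phosphorylase kinase genes, calmodulins included, 3 were lower and none higher in Diff. hepatocytes (14.0% and 14.9% of all tested genes were). In mature hepatocytes Phkb was higher than in hepatoblasts (1.08 ± 0.10, adjusted p = 3.48e-07 by edgeR) and 3 were lower, the scarce Phkg1 and the calmodulins Calm2 (-1.09 ± 0.11) and Calm3 (-1.33 ± 0.14), beside 20.1% and 24.7% of all tested genes.

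Of 9 genes of hormone receptors and the insulin signal, Adra1b, an adrenergic receptor through which catecholamines trigger glycogen breakdown, fell in Diff. hepatocytes, from 26.5 to 53.3 CPM in hepatoblasts to 10.4 to 17.0, and was higher in the adult cells, at 79.5 to 120. Gcgr, the glucagon receptor, had 40.0 to 67.3 CPM in hepatoblasts, 63.1 to 98.4 in Diff. hepatocytes and 351 to 436 in mature hepatocytes, and was called against hepatoblasts in the mature cells (2.82 ± 0.18, adjusted p = 8.48e-09 by edgeR). Insr, Irs1, Irs2, Akt1 and Akt2 were called in none of the comparisons. Of laforin, malin and their partner, only Epm2a, which encodes laforin, a glycogen phosphatase, was called, higher in mature hepatocytes than in both other groups.

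**Figure D5:**
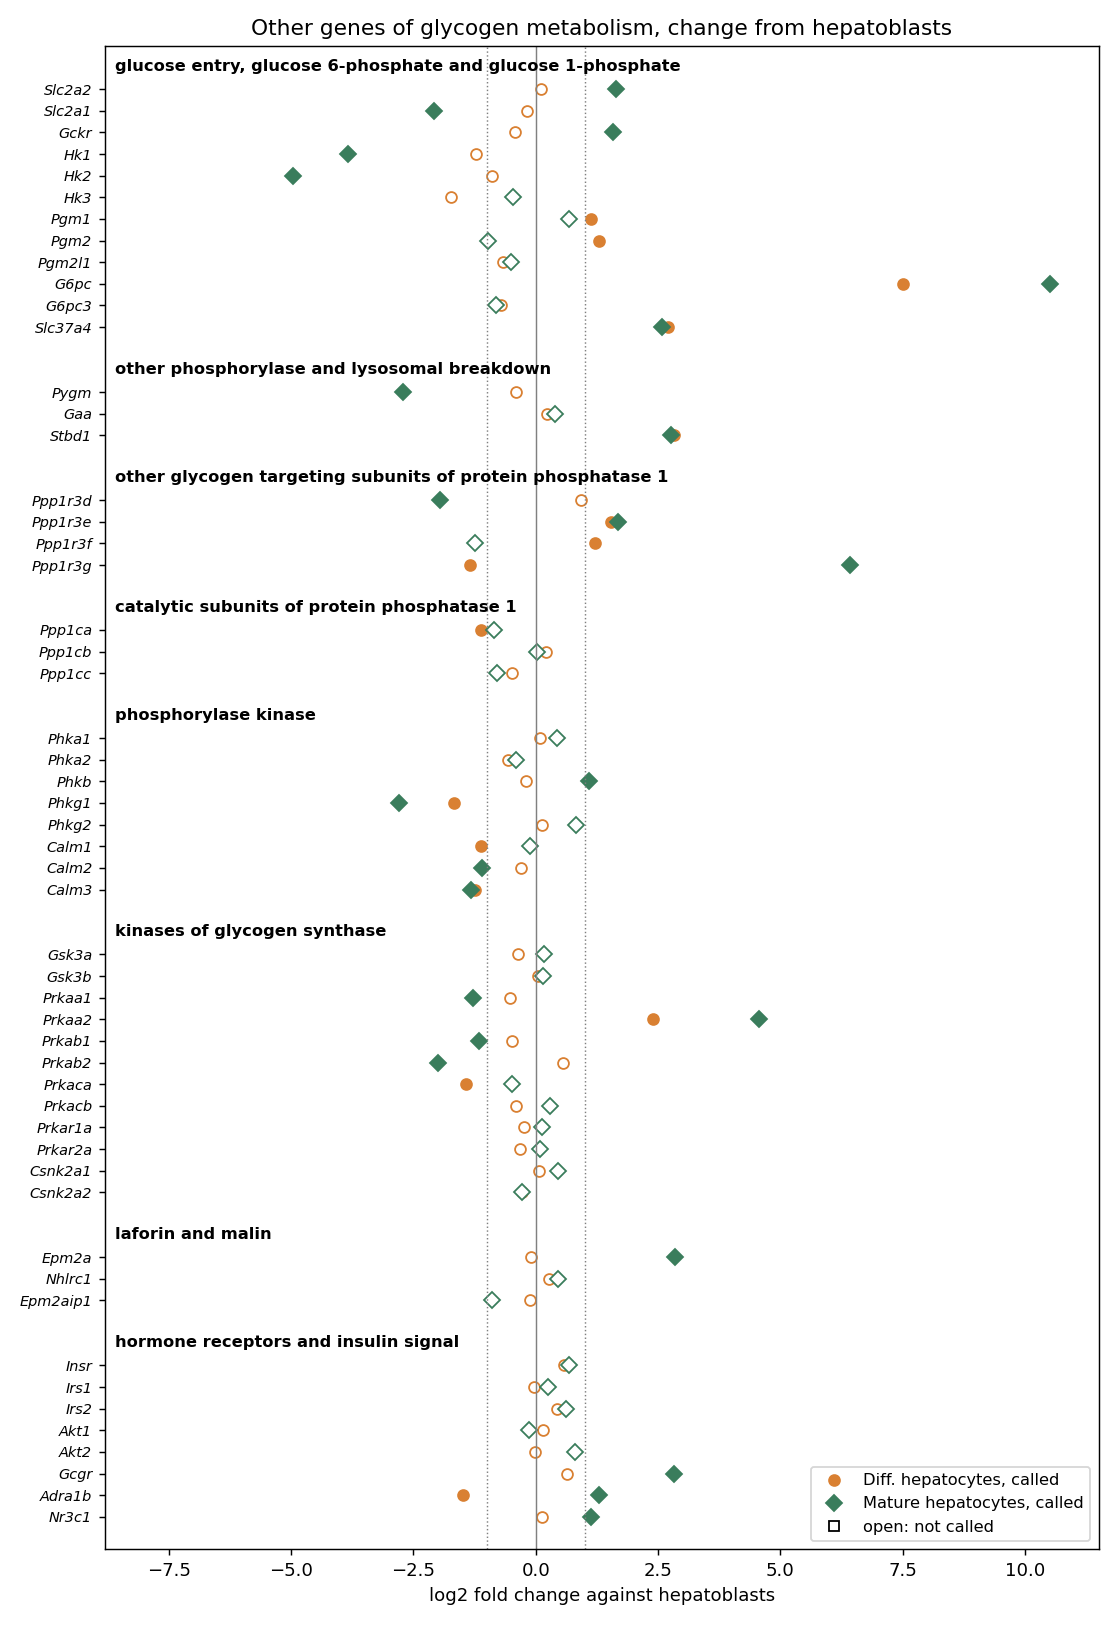
Log2 fold changes against hepatoblasts of the tested genes of the wider list that are reported here, grouped by role, with circles for Diff. hepatocytes and diamonds for mature hepatocytes. Filled symbols were called and dotted lines mark -1 and 1. G6pc has the largest rise of the genes shown in both groups, whereas Ppp1r3g lies at -1.35 for Diff. hepatocytes and at 6.42 for the adult cells.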

How the data were processed

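RNA of 4 libraries per group was read as single 75-bp reads. Per the labels' processing notes and the paper's methods, the authors checked the reads with FastQC 0.11.2, mapped them to GRCm38 and counted them per gene with STAR 2.5.2b, and they deposited raw counts, whole numbers without normalization. Picard 2.10.2 and DESeq2 1.22.2 are also listed. The strand setting of the counts is not given in the sources used here, so reads of opposite genes, such as Gys1 and Ruvbl2, may not be told apart.

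Symbols, exons and transcripts came from GENCODE M21 on GRCm38, where 53620 of 53715 identifiers were found. The 9 genes, the wider list and the marker lists were chosen with earlier results of these data known, and every member is named in each comparison, whereas the genes printed from the wider list were chosen after their values were seen. Some genes of the wider list are counted and not reported here. The tools were edgeR 4.0.16, DESeq2 1.42.0 and limma 3.58.1, run in R 4.3.3. Every gene that exceeded 10 counts in at least 1 library entered one edgeR quasi-likelihood fit over 12 libraries, with TMM scaling and the group as the only term. A call needed an adjusted p below 0.01 (Benjamini-Hochberg, over all tested genes) and a log2 fold change beyond 1 in either direction. Errors of fold changes are standard errors, and intervals are 95% intervals of the same fit. Overlap of groups was read on log2 CPM with a prior count of 2. Ratios used counts plus 0.5 divided by the union of exon bases, and their group means were compared over all 70 ways to split 8 libraries in an exact permutation test, two-sided. Each library was a separate biological replicate per the labels.

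On simulated counts of 16474 genes for Diff. hepatocytes against hepatoblasts, 187 of 200 changed genes and 3 unchanged genes were called. All simulated libraries were drawn from hepatoblast means, and the planted changes were larger than the fold threshold. Changes near that threshold, and shifts of library composition like those of the data, were not simulated. The alternatives were DESeq2's Wald test and size factors, library totals, the same totals less the 50 most abundant genes, 3 other filters, fits of 8 libraries, a replicate block, edgeR's glmTreat, an adjusted p under 0.05 without a fold threshold, fits without each library, and for the ratios other lengths and 5 added counts.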

Additional observations from a re-analysis of the deposited data

Results flagged for a closer look

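Among the 9 genes and 4 ratios, 39 groups of 4 libraries were examined for a library set apart from the other 3 by Dixon's criterion, and 4 were found, where chance gives about 1.95. The ratios are made from the same genes, so the groups are not independent and these numbers cannot show an excess. Gys2 was low in hepatoblasts replicate 1, at 150 CPM against 239, 250 and 257, in the library with the high erythroid, macrophage and endothelial markers. Pygb was high in mature hepatocytes replicate 3, at 9.98 CPM against 4.78, 5.42 and 5.46, and in the same library the ratio of Pygl to Pygb was low, at 65.1 against 90.7, 90.7 and 92.7. This library had the highest macrophage (293 CPM), endothelial (234), mesenchymal (67.3) and hepatoblast (64.5) marker sums of its group. In the hepatocyte, erythroid and bile duct sums it was not the highest. Ppp1r3c was low in Diff. hepatocytes replicate 1, at 36.7 CPM against 51.1, 51.5 and 53.6, in the library with the highest mesenchymal and bile duct markers of its group. The part of these markers in the values was not tested.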

How the results depend on the processing

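Of the 27 fold changes of the 9 genes, 584 of 621 values under the alternatives kept direction and call, 18 lost the call, 8 gained it and 11 changed sign, none of them a called one. Library totals turned Gyg (-0.07) and Pygl (-0.26) in Diff. hepatocytes against hepatoblasts, Gys2 in mature hepatocytes against hepatoblasts (-0.19), and Gbe1 (0.02) and Ppp1r3c (0.15) in Diff. against mature hepatocytes. Totals without the 50 most abundant genes turned Pygl (-0.05), Gys2 (-0.02), Gbe1 (0.05) and Ppp1r3c (0.16) in the same comparisons. Without 1 library, Pygl ranged from -0.03 (hepatoblasts replicate 1 left out) to 0.13 and Ppp1r3c from -0.73 to 0.10 (mature hepatocytes replicate 1 left out). Between Diff. and mature hepatocytes 3 members were called under either kind of totals, beside 40.9% and 41.7% of all tested genes. There 8 were called at an adjusted p under 0.05 without a fold threshold, beside 65.1% of all tested genes. The latter setting called 37, 46 and 38 genes of the wider list, beside 59.7%, 72.4% and 65.1% of all tested genes. With the fold threshold inside the test, glmTreat called 6 genes of that list in Diff. hepatocytes against hepatoblasts, beside 16.7%. Of the members, glmTreat did not call Ugp2 and Pygb there or Gys2 in Diff. against mature hepatocytes. Without 1 library each, 5 to 6, 8 and 4 to 6 members were called. The Ugp2 call in Diff. hepatocytes against hepatoblasts was lost under library totals (0.79). The causes were not tested, beyond the rescaling itself.

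Whether the replicate numbers pair the hepatoblast and Diff. hepatocyte libraries was not settled, and the main tests treated all libraries as unpaired. Replicate 1 was the highest library of both groups in the summed erythroid and macrophage markers. Same-numbered libraries correlated in their deviations from the group mean at -0.0589 to 0.324 between hepatoblasts and Diff. hepatocytes, with 3 of 4 pairs over 0.1, at -0.0309 to 0.0923 between hepatoblasts and mature hepatocytes and at -0.0813 to 0.0865 between Diff. and mature hepatocytes, and 2, 2 and 0 of 4 correlated best with their own number. With the number as a block 6, 8 and 4 members were called, Gys2 being lost (-0.96). Ratios compared by number allow no p below 0.125, so the 7 called differences (-1.69, 1.93 and -3.62 for Gys2 over Gys1, 1.46, 6.17 and -4.71 for Pygl over Pygb and -0.85 for Ppp1r3b over Ppp1r3c, in the order of the comparisons) had an adjusted p of 0.188 in that exact test. Gys2 over Pygl in mature hepatocytes against hepatoblasts ranged from -1.15 to -0.53 without 1 library, and passed (adjusted p = 0.0429, exact permutation test) without mature hepatocytes replicate 4. The other 136 ratio values kept their call. With 4 libraries a group, and with Ppp1r3c near 1 CPM in hepatoblasts, differences of less than the given intervals cannot be resolved.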

Other observations

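The 4 mature hepatocyte libraries differed among themselves in several genes of the pathway. Gys2 was 460 and 504 CPM in replicates 2 and 4 and 231 and 210 in replicates 1 and 3, while Ppp1r3b was 236 and 201 in replicates 2 and 4 and 315 and 413 in replicates 1 and 3, the opposite order. Slc37a4 followed Gys2, at 310 and 251 CPM against 156 and 180, as did Slc2a2, at 542 and 597 against 391 and 391. Ppp1r3c was also lower in replicates 2 and 4, at 17.3 and 56.0 CPM, than in replicates 1 and 3, at 121 and 61.5. Ppp1r3g was near 170 CPM in replicates 1, 2 and 4 and at 89.1 in replicate 3, the library that also had the highest Ppp1r3b and Pygl (934 CPM). Macrophage markers split likewise, at 154 and 153 CPM in replicates 2 and 4 and 266 and 293 in replicates 1 and 3. So did the endothelial markers (132 and 170 against 224 and 234) and the hepatoblast markers (41.3 and 35.2 against 44.8 and 64.5). The hepatocyte, erythroid, mesenchymal and bile duct sums did not. These groupings of libraries were noticed after the values were seen and were not tested, nor was the part of the markers in them.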
